A study of Mus musculus with 16 samples.

Results

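The genes described here are 10 that lymphocytes of type 2 immunity use. They were the cytokine genes Il4, Il5, Il13 and Csf2, the growth factor gene Areg, the transcription factor gene Gata3, and the receptor genes Il1rl1, Il9r, Il2ra and Klrg1. They were chosen by symbol from a table of RNA sequencing counts with 55423 gene rows, and all 10 were among the 21085 genes with enough counts to test. No measured value entered the choice of symbols, although earlier results of these data were known.

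Type 2 immunity is the response to worms, allergens and damaged barriers. Its main lymphocytes are T helper 2 cells and their innate counterparts, the group 2 innate lymphoid cells (ILC2s), which carry no antigen receptor and respond to alarm signals such as IL-33. Both need the transcription factor GATA3 and release IL-4, IL-5 and IL-13. Mast cells, basophils and eosinophils can make some of the same cytokines. ILC2s are found in lymph nodes as well as in barrier tissues, where their cytokines act on macrophages, eosinophils and B cells.

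The libraries came from macrophages of male C57B/6 mice with an intradermal MOC2 tumor, a line of squamous cell carcinoma, grown for 2 weeks from 500000 cells implanted in the flank near the inguinal node. All groups therefore came from mice with a tumor, and the non-draining lymph nodes (ndLN) of the opposite side served as the control for the tumor-draining lymph nodes (tdLN). Each pool joined the nodes of 2 mice, 2 tdLN or 6 ndLN, and about 10000 cells were sorted. The ndLN were inguinal, axillary and brachial nodes, so that node site cannot be told apart from drainage in the comparisons between nodes. The gate took CD45+ cells that were CD11b+ and CD169+, and left out cells stained by 7AAD or for CD3, B220 or Ly6G. Within that gate, sub-capsular sinus macrophages (SSMs) were the CD11c- cells of low side scatter, and medullary sinus macrophages (MSMs) the CD11c+ cells of high side scatter. The 4 groups, SSMs and MSMs from each kind of node, had 2 libraries each, numbered pool 1 and pool 2, and each library was sequenced on 2 lanes that were summed. The labels give no number to 1 SSM library from tdLN. It was taken as pool 1, the number left in its group, so that each pool 1 ratio between nodes in SSMs rests on this inference. The labels also do not say that a number stands for the same mice in both nodes, which every ratio within a pool assumes. Deviations of same-numbered SSM libraries from their group means correlated at 0.017 between nodes, over 10000 genes.

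Library totals lay between 42972328 and 48130352 counts. Levels are given in CPM, counts scaled for depth, with library sizes adjusted by TMM, and the floor of 3 counts per library, used where a group is at 0, equalled 0.0552 to 0.0769 CPM. All 8 macrophage genes examined were detected in all 8 libraries, Mertk with only 7 and 23 counts in SSMs from ndLN. By the rule for calls given below, 3 of them were higher in SSMs than in MSMs in ndLN, Siglec1, Csf1r and Itgam. In the same comparison 2 were called lower, Mertk (log2 fold change -3.49) and Cd68 (-1.06). Siglec1, which encodes CD169, was at 15.1 and 8.47 CPM in SSMs from ndLN, 70.0 and 59.2 in SSMs from tdLN, 0.79 and 1.63 in MSMs from ndLN, and 5.96 and 5.64 in MSMs from tdLN. Itgax, which encodes CD11c, lay between 63.6 and 149 CPM in SSMs and between 316 and 418 in MSMs. A marker gene of cells that the gate left out was also detected. Cd3e, part of the T cell receptor complex, was at 151 and 143 CPM in SSMs from ndLN and at 12.3 and 16.3 in MSMs from ndLN, and the source of this RNA was not tested.

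The 4 cytokine genes of the set lie in a single stretch of mouse chromosome 11. On GRCm38 they are Il4 (chr11:53602982-53618669, minus strand), Il13 (chr11:53631324-53634702, minus strand), Il5 (chr11:53720794-53725106, plus strand) and Csf2 (chr11:54247271-54249667, minus strand). Il4 and Il13 end 12654 bases apart, Il13 and Il5 86091 bases apart with Rad50 between them, and Il5 and Csf2 522164 bases apart. Il9r lies elsewhere on chromosome 11 (chr11:32187541-32200279, minus strand). The other members are Il1rl1 (chr1:40429570-40465415, plus strand), Gata3 (chr2:9857078-9890034, minus strand), Il2ra (chr2:11642807-11693193, plus strand), Areg (chr5:91139599-91148432, plus strand) and Klrg1 (chr6:122270596-122282882, minus strand). Positions and exon lengths are those of GENCODE M21, and the library kit does not mark strand. Il5 shares 417 exon bases with the antisense gene Gm12214, which had 0 counts, and Csf2 shares 96 with the antisense gene Gm12223, which had 0 to 17 counts a library.

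The sequences before the starts of these 4 cytokine genes and of Il1rl1 are shown because GATA3, a member of the set, binds the letters GATA, and because the 4 neighbours did not move together between pools. Each is the 250 bases before the RefSeq start on GRCm38.p6, written 5′ to 3′ on the strand of the gene, and capitals mark matches on either strand to AGATAA, in which the first A may be T and the last A may be G.
Il4 (chr11:53618666-53618915, minus strand): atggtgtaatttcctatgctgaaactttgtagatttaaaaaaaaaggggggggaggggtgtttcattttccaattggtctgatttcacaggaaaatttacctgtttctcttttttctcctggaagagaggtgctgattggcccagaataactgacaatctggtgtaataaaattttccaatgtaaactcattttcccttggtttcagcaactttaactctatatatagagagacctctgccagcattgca
Il13 (chr11:53634703-53634952, minus strand): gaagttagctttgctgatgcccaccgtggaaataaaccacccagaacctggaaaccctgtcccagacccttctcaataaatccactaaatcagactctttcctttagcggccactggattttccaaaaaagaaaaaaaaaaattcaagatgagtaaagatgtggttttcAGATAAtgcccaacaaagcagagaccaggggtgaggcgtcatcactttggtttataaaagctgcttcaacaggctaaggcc
Il5 (chr11:53720544-53720793, plus strand): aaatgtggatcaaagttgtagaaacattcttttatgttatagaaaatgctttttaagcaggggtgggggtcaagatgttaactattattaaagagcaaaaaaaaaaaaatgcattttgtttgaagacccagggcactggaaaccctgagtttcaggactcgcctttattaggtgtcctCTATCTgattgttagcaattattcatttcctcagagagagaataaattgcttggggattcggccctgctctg
Csf2 (chr11:54249900-54250149, minus strand): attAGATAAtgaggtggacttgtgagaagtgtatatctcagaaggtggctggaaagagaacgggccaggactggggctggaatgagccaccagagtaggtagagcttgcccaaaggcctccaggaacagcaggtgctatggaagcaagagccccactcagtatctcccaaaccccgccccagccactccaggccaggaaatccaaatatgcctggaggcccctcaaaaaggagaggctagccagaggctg
Il1rl1 (chr1:40429320-40429569, plus strand): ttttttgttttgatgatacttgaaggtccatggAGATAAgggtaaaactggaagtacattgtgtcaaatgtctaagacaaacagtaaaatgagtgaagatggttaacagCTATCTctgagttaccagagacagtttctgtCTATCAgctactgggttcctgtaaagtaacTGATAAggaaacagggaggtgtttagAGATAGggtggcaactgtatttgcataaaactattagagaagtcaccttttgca

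RefSeq gave 11 start sites for 9 of the 10 members, and 7 of the 11 windows held at least 1 such match, as did 26.5% of 32851 windows of the same length before mouse starts. The Il1rl1 window shown held 5 matches, the most of the 11, and that before its other start (chr1:40439379-40439628) held 1. Of the windows not shown, those of Gata3, Areg and Il2ra held none and that of Il9r held 2. Il13 and Il5 each held 1, beginning at -81 and -72 from the start, and Csf2 held 1 at -247. The Csf2 window reaches down to 54249900, whereas GENCODE starts the gene at 54249667, so the bases between them were not searched. The Il4 window shown held none, and that before its other start (chr11:53617339-53617588) held 1 at -80. The letters GGAAA, the core of NFAT sites, were found on either strand 5 times in the Il4 window shown and 0 times before its other start. They were found 4 times before Il13, 2 times each before Il5 and Csf2, and in 55.6% of all windows. The AP-1 letters TGANTCA were found in none of the 11 windows and in 6.75% of all windows. A match is a description of the letters and does not show binding.

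In ndLN, all 10 genes were higher in SSMs than in MSMs in every library, and 8 of the 10 passed the test. Of the 21085 genes tested, 30.7% had both SSM libraries above both MSM libraries in ndLN. The cytokine genes were near 0 in MSMs, whereas Areg and Il2ra were at 13.0 CPM or more in them. A gene was called when its adjusted p over all genes tested was under 0.01 (edgeR's quasi-likelihood test, Benjamini-Hochberg) and its mean normalized count was over 100. By this rule 6.01% of the 21085 genes, and 12.7% of the 9985 genes over the count limit, were called higher in SSMs from ndLN. Il13 and Il9r were the members not called, and both were under the count limit, with mean normalized counts of 32.0 and 63.1. The median log2 fold change of the 10 genes was 4.86, against 0.09 over all genes tested. In bulk libraries, more cells of a type and more RNA per cell cannot be told apart.

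**Figure D1:**
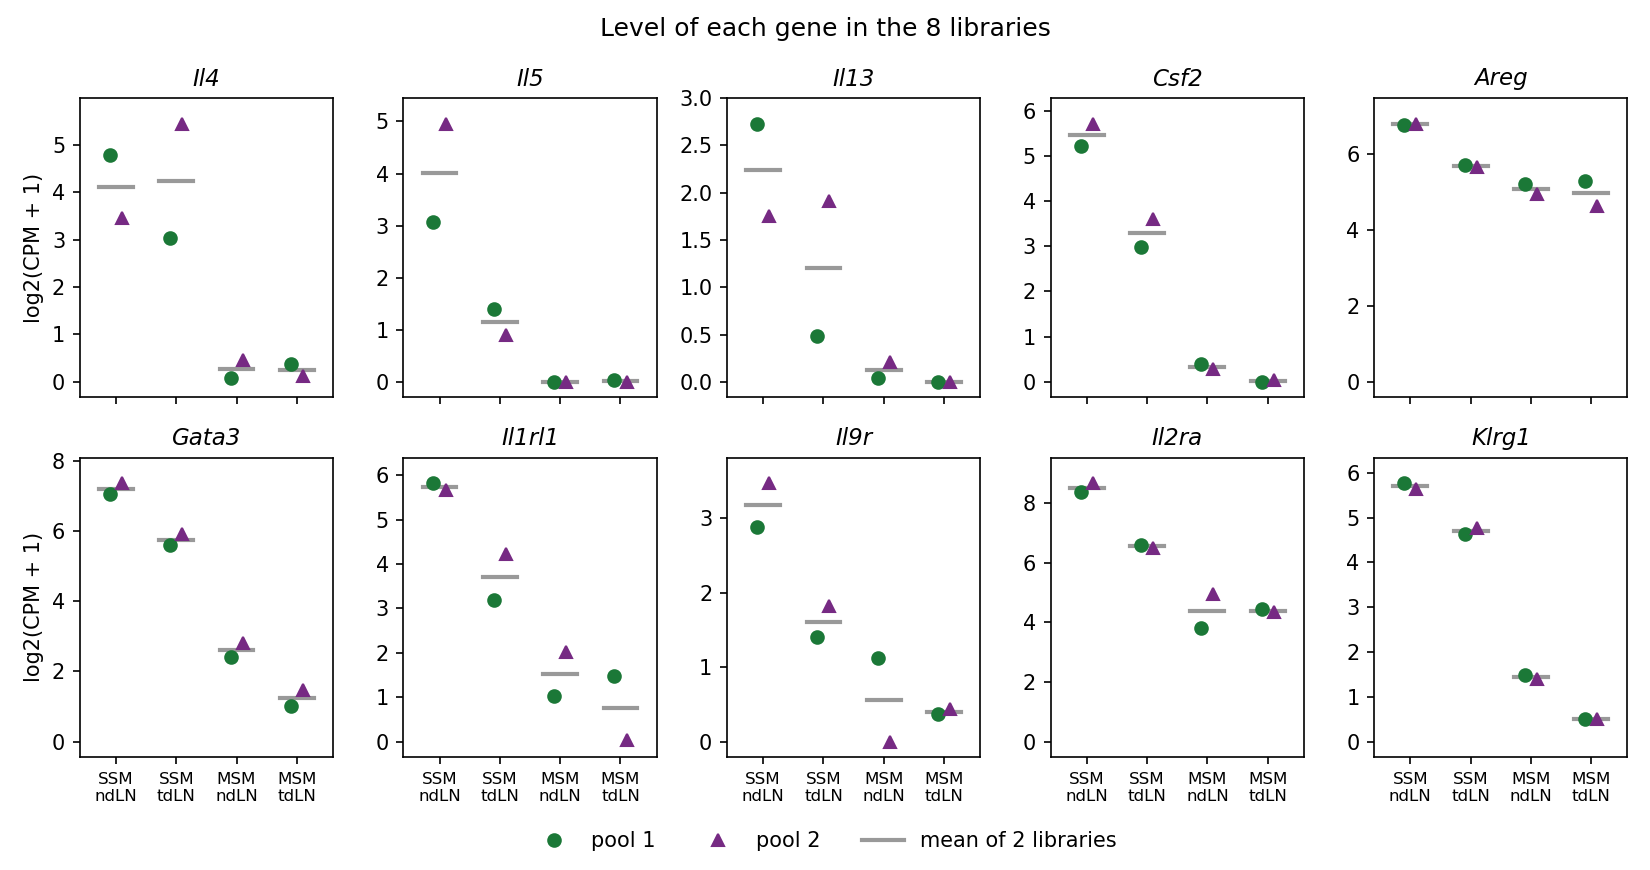
Level of each gene as log2(CPM + 1) on the vertical axis, in SSMs and MSMs from ndLN and tdLN on the horizontal axis; circles are pool 1, triangles pool 2 and bars the mean of 2 libraries. In ndLN, both SSM libraries lie above both MSM libraries for all 10 genes, and in SSMs from ndLN the pools part most for Il4, Il5 and Il13.

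Among the cytokines, Csf2 encodes GM-CSF, which supports the growth and activation of myeloid cells. It was at 36.0 and 51.3 CPM in SSMs from ndLN and at 0.308 and 0.223 CPM in MSMs from ndLN. The groups were far apart, with a log2 fold change of 7.38 ± 0.37 (SE; adjusted p = 2.62e-05 by edgeR's quasi-likelihood test). Il5, the main growth factor of eosinophils, was at 7.37 and 30.0 CPM in SSMs from ndLN and had 0 counts in both MSM libraries. It was at least 260-fold higher in SSMs when MSMs were set at 3 counts per library (adjusted p = 0.00336).

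Il4 and Il13 encode cytokines that share a receptor chain and act on B cells, macrophages and epithelia. Il4 was at 26.5 and 9.96 CPM in SSMs from ndLN, and at 0.051 and 0.379 CPM in MSMs. Its log2 fold change was 6.46 ± 1.36 (SE; adjusted p = 0.00765 by edgeR's quasi-likelihood test). Il13 was at 5.63 and 2.37 CPM against 0.026 and 0.156 CPM. Its log2 fold change of 5.35 ± 1.30 (SE) had an adjusted p of 0.0184 in edgeR's quasi-likelihood test and was not called. For each of these genes the lower SSM library was still above the higher MSM library.

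Areg, which encodes amphiregulin, a ligand of the epidermal growth factor receptor made by ILC2s and regulatory T cells but also by myeloid cells, was at 108 and 110 CPM in SSMs from ndLN and at 35.9 and 29.6 CPM in MSMs from ndLN. The log2 fold change was 1.75 ± 0.20 (SE; adjusted p = 7.87e-04 by edgeR's quasi-likelihood test), the smallest of the 10.

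Among Gata3 and the receptor genes, Gata3 and Klrg1 differed by at most 1.39-fold between pools in ndLN, whereas Il2ra differed by 2.28-fold and Il1rl1 by 2.96-fold between the MSM pools. Gata3, the transcription factor that type 2 lymphocytes need, was at 133 and 163 CPM in SSMs from ndLN and at 4.33 and 6.02 CPM in MSMs (log2 fold change 4.84 ± 0.19, SE; adjusted p = 1.46e-05 by edgeR's quasi-likelihood test). Il2ra, the alpha chain of the high-affinity IL-2 receptor, was at 334 and 406 CPM against 13.0 and 29.8 CPM. Klrg1, an inhibitory receptor of mature NK cells, T cells and ILC2s, was at 53.3 and 48.8 CPM against 1.82 and 1.63 CPM. Both were called, with log2 fold changes of 4.13 ± 0.32 and 4.89 ± 0.24 (SE).

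Il1rl1 encodes ST2, the receptor for IL-33. It was at 55.3 and 50.2 CPM in SSMs from ndLN and at 1.03 and 3.03 CPM in MSMs from ndLN, with a log2 fold change of 4.70 ± 0.62 (SE; adjusted p = 0.00137 by edgeR's quasi-likelihood test). Il9r, a receptor chain that sustains ILC2s and mast cells, was at 6.36 and 10.0 CPM against 1.18 and 0 CPM. Its adjusted p was 0.00503, with a log2 fold change of 3.87 ± 0.69 (SE), and it was left uncalled by its low count alone.

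Per kilobase of exon, the order in SSMs from ndLN was Areg (90.0), Il2ra (64.8), Csf2 (54.6), Gata3 (37.1), Klrg1 (36.1), Il4 (14.9), Il5 (12.2), Il1rl1 (7.65), Il13 (3.32) and Il9r (1.66), as means of 2 libraries in CPM per kilobase. The gap between neighbours was smaller than the SD of 1 of them for Il2ra and Csf2 (SD of Csf2 13.5), Gata3 and Klrg1 (SD of Gata3 5.33), Il4 and Il5 and also Il5 and Il1rl1 (SD of Il5 10.4), and Il13 and Il9r (SD of Il13 1.91). The order within these pairs was therefore within the spread of the libraries. In MSMs from ndLN, Areg led with 26.9 and the next, Il2ra, was at 3.75 CPM per kilobase.

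Csf2, Gata3, Il2ra and Klrg1 were called in ndLN after any 1 library was left out. Areg was lost without either MSM library from ndLN, Il1rl1 without either of those or pool 1 of SSMs, and Il5 without either of those or pool 2 of SSMs. Il4 was lost without any 1 of the 4 MSM libraries, those from tdLN included, so that 4 to 8 members were called over the 8 omissions.

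In tdLN the same question gave 5 called members, Csf2, Il4, Gata3, Klrg1 and Il2ra, all higher in SSMs. By the same rule 5.16% of all genes tested and 10.9% of those over the count limit were called higher. The median log2 fold change of the members was 5.57, against 0.02 over all genes tested, and 4.88 with Il13 set at its lower bound. Both SSM libraries were again above both MSM libraries for each of the 10 genes, as they were for 29.5% of all genes tested.

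**Figure D2:**
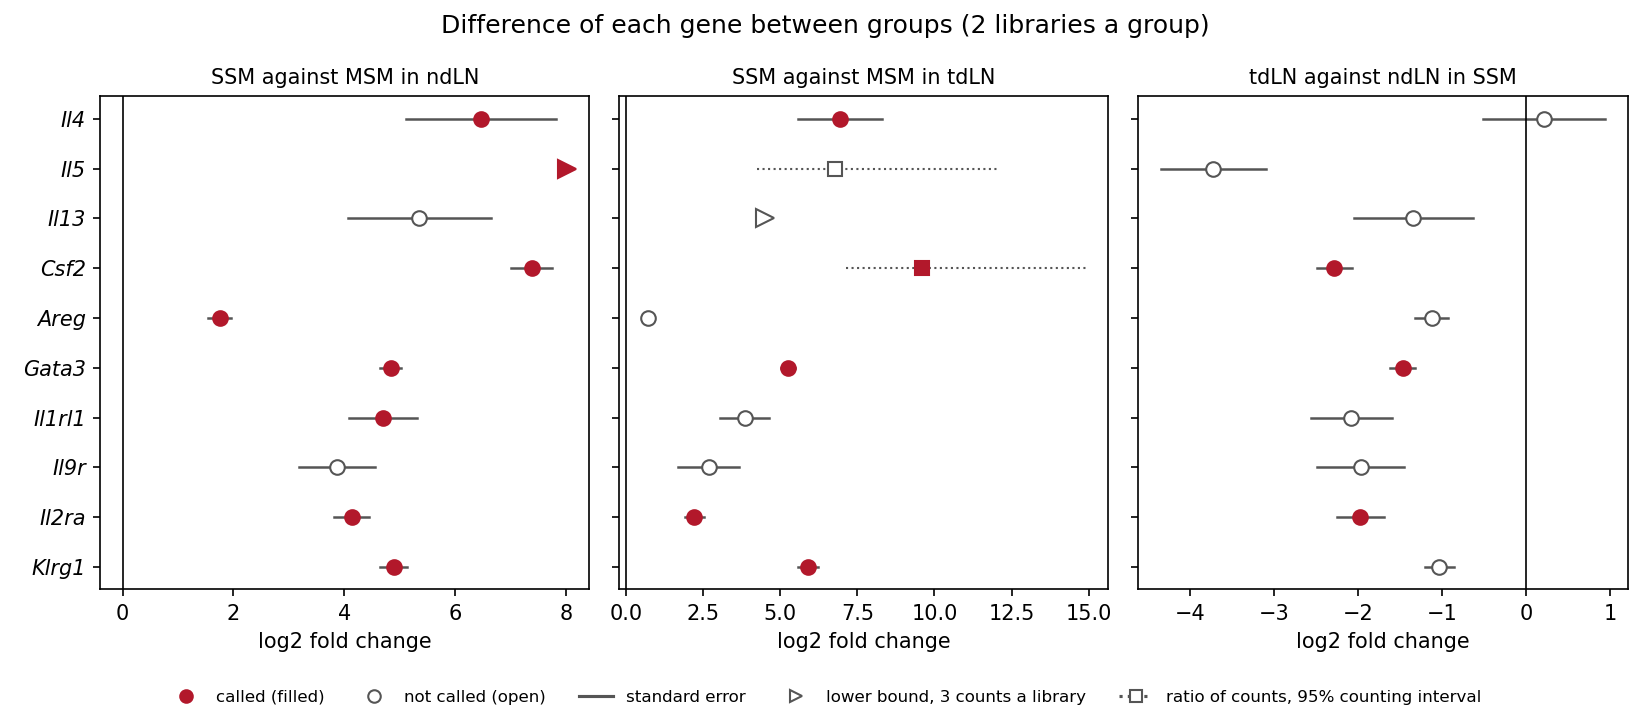
Log2 fold change (horizontal axis) of each gene (vertical axis) in 3 comparisons of 2 libraries a group. Filled marks were called; circles carry standard errors from the model, triangles are lower bounds at 3 counts a library, and squares are ratios of counts with 95% counting intervals. All marks lie right of 0 in the SSM against MSM panels, and 9 of 10 lie left of 0 for tdLN against ndLN in SSMs.

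Klrg1 was at 23.7 and 26.1 CPM in SSMs from tdLN and at 0.412 and 0.418 CPM in MSMs from tdLN, a log2 fold change of 5.90 ± 0.32 (SE; adjusted p = 6.29e-05 by edgeR's quasi-likelihood test). Gata3 was at 47.1 and 59.7 CPM against 1.02 and 1.78 CPM, with a log2 fold change of 5.25 ± 0.23 (SE; adjusted p = 3.47e-05). Il2ra was at 96.4 and 89.7 CPM against 21.01 and 19.2 CPM, with a log2 fold change of 2.22 ± 0.30 (SE; adjusted p = 0.00220). These genes did not overlap between the subsets.

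Csf2 was at 6.93 and 11.2 CPM in SSMs from tdLN, and MSMs from tdLN held 1 count in all, so that the ratio of summed counts was 782 with a 95% counting interval from 140 to 30930 (adjusted p = 2.21e-04 by edgeR's quasi-likelihood test). Il4 was at 7.20 and 42.5 CPM against 0.291 and 0.088 CPM, with a log2 fold change of 6.95 ± 1.37 (SE; adjusted p = 0.00732). The 2 SSM libraries differed from each other by 5.91-fold in Il4.

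The other 5 members did not pass in tdLN. Il1rl1 was at 8.05 and 17.8 CPM in SSMs and at 1.79 and 0.022 CPM in MSMs (log2 fold change 3.85 ± 0.79, SE; adjusted p = 0.0146 by edgeR's quasi-likelihood test). Areg was at 51.0 and 49.5 CPM against 38.4 and 23.9 CPM (log2 fold change 0.71 ± 0.21, SE; adjusted p = 0.0546). Il5 was at 1.64 and 0.871 CPM against 0.024 and 0 CPM, Il13 at 0.404 and 2.77 CPM against 0 and 0, and Il9r at 1.64 and 2.52 CPM against 0.291 and 0.352. Their adjusted p were 0.155, 0.0885 and 0.120, with 1 count of Il5 and none of Il13 in the MSM libraries. Leaving out 1 library left 3 to 5 members called: Il2ra was lost without any 1 of the 4 tdLN libraries, and Il4 without pool 2 of SSMs from tdLN or any 1 of the MSM libraries.

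Between nodes, SSMs from tdLN had less Csf2, Gata3 and Il2ra than SSMs from ndLN, and these 3 of the 10 members were called lower. No member was called higher. Over all genes tested, 1.05% were called lower in tdLN, and 2.21% of those over the count limit. The median log2 fold change of the members was -1.72, against -0.04 over all genes tested. An adjusted p under 0.05 was found for 7 members, and in either direction for 2032 of the 21085 genes tested. Within each pool, 8 of the 10 were lower in tdLN in both pools, as were 30.9% of all genes tested, and Il4 and Il13 were the exceptions.

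Csf2 went from 36.0 and 51.3 CPM in ndLN to 6.93 and 11.2 CPM in tdLN, a fold of 0.193 in pool 1 and 0.218 in pool 2. It fell by 2.28 ± 0.21 (SE) on the log2 scale (adjusted p = 0.00197 by edgeR's quasi-likelihood test). Il2ra went from 334 and 406 CPM to 96.4 and 89.7 CPM, with folds of 0.288 and 0.221, and fell by 1.97 ± 0.28 (SE; adjusted p = 0.00668). Gata3 went from 133 and 163 CPM to 47.1 and 59.7 CPM, with folds of 0.355 and 0.367, and fell by 1.47 ± 0.15 (SE; adjusted p = 0.00241). For each, the tdLN libraries lay below both ndLN libraries and the pools gave like ratios. All 3 calls were lost when any 1 of the 4 SSM libraries was left out, and that of Il2ra also without either MSM library from tdLN. Each such fit leaves 1 library in a group and called far fewer genes of any kind than the full fit. Over the 21 alternatives given below, the log2 fold change lay between -2.40 and -2.20 for Csf2. The ranges were -2.27 to -1.72 for Il2ra and -1.53 to -1.41 for Gata3.

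Klrg1, Areg, Il5, Il1rl1 and Il9r did not pass, with adjusted p of 0.0119, 0.0145, 0.0221, 0.0381 and 0.0550 in edgeR's quasi-likelihood test. Their log2 fold changes were -1.04 ± 0.17, -1.12 ± 0.20, -3.72 ± 0.63, -2.08 ± 0.48 and -1.97 ± 0.52 (SE). In each of them both tdLN libraries were below both ndLN libraries, as they were for 26.3% of all genes tested. For Areg the ratio of tdLN to ndLN was 0.470 in pool 1 and 0.449 in pool 2, while for Il5 it was 0.222 and 0.029.

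**Figure D3:**
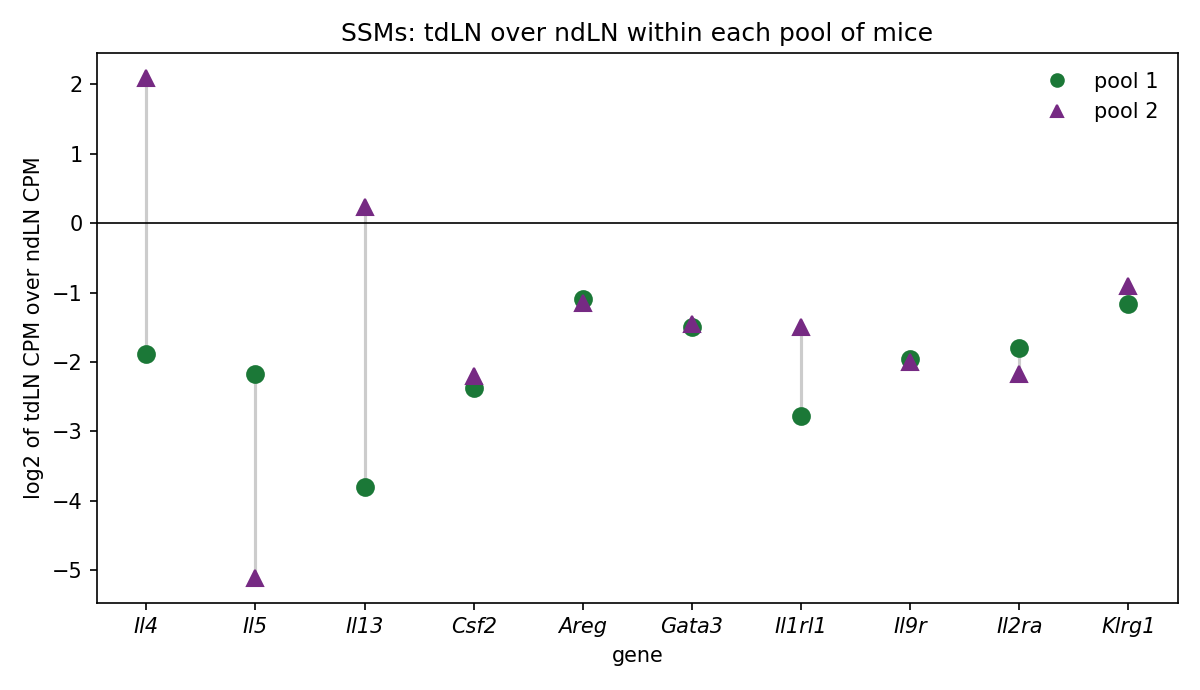
Log2 of the tdLN CPM over the ndLN CPM (vertical axis) in SSMs for each gene (horizontal axis); circles are pool 1 and triangles pool 2. For 8 genes both pools lie below 0, whereas Il4 is at -1.88 in pool 1 and 2.09 in pool 2, and Il13 at -3.80 and 0.23.

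For Il4 and Il13 the order of the pools, as numbered here, differed between nodes. In ndLN, pool 1 was the higher of the pools for both, by 2.66-fold for Il4 and 2.38-fold for Il13. In tdLN, pool 2 was higher for both, by 5.91-fold and 6.87-fold. Il5 showed the other order in each node: pool 2 was higher in ndLN, at 30.0 against 7.37 CPM, and pool 1 in tdLN, at 1.64 against 0.871 CPM. The log2 fold changes between nodes were 0.21 ± 0.73 (SE) for Il4 and -1.34 ± 0.71 for Il13, with adjusted p of 0.908 and 0.306 in edgeR's quasi-likelihood test. Without pool 2 of SSMs from tdLN, that of Il4 became -1.82 (adjusted p = 0.115), and without pool 1 of SSMs from tdLN that of Il13 became 0.13 (adjusted p = 0.986).

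Some genes of granulocytes and mast cells varied between the same libraries. Fcer1a, the alpha chain of the IgE receptor on mast cells and basophils, was at 32.9 and 14.9 CPM in SSMs from ndLN and at 6.12 and 18.9 CPM in those from tdLN, the order of the pools seen for Il4 and Il13. Mcpt2, a mast cell protease gene that was taken for its likeness to Il4 and is in none of the lists, was at 12.4 and 2.36 CPM in ndLN and at 5.38 and 23.8 CPM in tdLN, and at 0 in all MSM libraries. The basophil protease gene Prss34 was at 1.27 and 0 CPM in SSMs from ndLN and at 30.3 and 0.023 CPM in those from tdLN. The eosinophil granule gene Prg2 was at 4.56 and 2.45 CPM in SSMs from ndLN and at 0.583 and 53.9 CPM in those from tdLN. In the mast cell list, Cpa3, Cma1, Tpsb2, Mcpt4, Mrgprb1, Mrgprb2, Tph1 and Hdc had the order of Il4 and Il13 too. So did Ms4a2 and Cd200r3 of the basophil list and Siglecf, Ccr3, Il5ra and Prg2 of the eosinophil list. Il3ra and Prss34 of the basophil list did not, and Epx of the eosinophil list had 0 counts in SSMs from ndLN. The share of all genes tested with this order was not counted. Cpa3 was at 562 and 311 CPM in ndLN and at 36.1 and 113 CPM in tdLN. Kit, the stem cell factor receptor of mast cells and the remaining gene of that list, had another order. It was at 339 and 481 CPM in ndLN and at 73.1 and 61.6 CPM in tdLN. The basophil protease gene Mcpt8 also had another order, at 1.60 and 3.92 CPM in ndLN and at 20.4 and 23.8 CPM in tdLN. The part of these cells in the levels of Il4 and Il13 was not tested.

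In MSMs, none of the 10 members was called between tdLN and ndLN in edgeR's quasi-likelihood test, where 0.0237% of all genes tested were called in either direction. Of the members, 2 had an unadjusted p under 0.05, as did 2517 of the 21085 genes tested. Gata3 went from 4.33 and 6.02 CPM to 1.02 and 1.78 CPM (log2 fold change -1.88 ± 0.29, SE; adjusted p = 0.0526), and Klrg1 from 1.82 and 1.63 CPM to 0.412 and 0.418 CPM (-2.04 ± 0.50, SE; adjusted p = 0.174). Il2ra was at 13.0 and 29.8 CPM in ndLN and at 21.01 and 19.2 CPM in tdLN, with a log2 fold change of -0.06 ± 0.31 (SE). The Wald test of DESeq2 called 2 members, and 3.56% of the 14135 genes to which it gave an adjusted p.

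The test of whether the node difference depended on the subset also called 0 members in edgeR's quasi-likelihood fit, with 0.0379% of all genes called in either direction. An unadjusted p under 0.05 was found for 2 members, and for 2600 of the 21085 genes tested. The interaction was -1.92 ± 0.42 (SE) on the log2 scale for Il2ra (adjusted p = 0.0951) and -1.04 ± 0.29 for Areg (adjusted p = 0.172). In MSMs alone, the log2 fold changes between nodes were -0.06 for Il2ra and -0.09 for Areg. The Wald test of DESeq2 called 1 member, and 5.3% of 13318 genes. A smaller fall of these genes in MSMs than in SSMs was therefore not shown by edgeR.

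Other genes associated with ILC2s, 18 in a fixed list, were described beside the members. In ndLN, 13 of the 18 were called higher in SSMs and 0 lower, and in tdLN 13 higher and 1 lower. Their median log2 fold changes were 3.94 and 4.48. Those with the largest log2 fold change among the called in ndLN were Il17rb, a receptor chain for IL-25 (5.51), Rora, a transcription factor that ILC2s need (5.10), and Gfi1, a transcriptional repressor (4.73). Rora was at 607 and 800 CPM in SSMs from ndLN, and Il7r, the receptor chain for IL-7, at 602 and 757 CPM. By contrast, Ptgdr2, the prostaglandin D2 receptor CRTH2, did not exceed 1.25 CPM in any library, and Nmur1, the neuromedin U receptor, did not exceed 0.902 CPM. Between nodes in SSMs, 6 of the 18 were called lower and 0 higher, namely Il7r, Rora, Tcf7, Ets1, Ccr8 and Tnfrsf18.

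The alarm signals and costimuli that act on these cells were mostly low. Of 11 listed, 9 were tested, 4 of them over the count limit, and 1 was called higher and 1 lower in SSMs in each node. Of all genes over that limit, 12.7% were called higher and 12.8% lower in ndLN, and 10.9% and 7.44% in tdLN. The gene called higher was Calca, the gene of the neuropeptide CGRP, with 58.9 and 100.1 CPM in SSMs from ndLN and 0.743 and 1.29 CPM in MSMs from ndLN. The gene called lower was Icosl, a costimulatory ligand, with log2 fold changes of -1.10 in ndLN and -1.38 in tdLN. Il33 lay between 0 and 9.66 CPM over the 8 libraries. Nmu had 0 counts in every library, which allows up to 0.0769 CPM at 3 counts. In SSMs, Il18 was called higher in tdLN, with 23.1 and 11.1 CPM in ndLN and 68.1 and 63.3 CPM in tdLN, and Calca was called lower, with 25.0 and 21.9 CPM in tdLN.

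The receptors and signalling genes for these cytokines moved in different directions. Of 22 listed, 21 were tested. In ndLN, 8 were called higher in SSMs and 3 lower, and the largest increases among those called were in Il2rb, the beta chain of the IL-2 receptor (log2 fold change 5.30), Cish, an inhibitor induced by STAT5 (3.53), and Il2rg, the common gamma chain (2.50). The 3 lower were Csf2ra and Csf2rb, the chains of the GM-CSF receptor, at -1.85 and -1.60, and Il13ra1, at -0.94.

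Between nodes in SSMs, 3 of these receptor and signalling genes were called higher and 3 lower. Csf2ra was at 166 and 121 CPM in ndLN and at 370 and 331 CPM in tdLN, and Csf2rb at 238 and 182 CPM and at 471 and 420 CPM, so both chains rose where their ligand gene Csf2 fell. Il13ra1 rose as well, with a log2 fold change of 1.32. The genes called lower were Il2rb (-1.48), Socs1 (-1.63) and Cish (-1.37), of which the last 2 encode inhibitors of cytokine signalling. In tdLN, 6 of the list were called higher in SSMs than in MSMs and 1 lower. In MSMs between nodes, edgeR's quasi-likelihood test called 0 of them.

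Of 11 other cytokine genes listed, 9 were tested, 7 of them over the count limit. In ndLN, 2 were called higher and 2 lower in SSMs, beside 12.7% and 12.8% of all genes over that limit. Ccl1, a chemokine for CCR8, was at 31.1 and 20.1 CPM in SSMs from ndLN, 5.78 and 8.53 CPM in SSMs from tdLN, and 0 in both MSM libraries from ndLN. Lif was also higher, with a log2 fold change of 2.20. The chemokine genes Ccl17 and Ccl22 were lower in SSMs, with log2 fold changes of -2.57 and -1.98 in ndLN and -3.52 and -3.21 in tdLN. In tdLN, Ccl1 was the 1 gene called higher. Il9 and Il31 had 0 counts in all libraries. Between nodes in SSMs, 1 was called: Ccl24, an eosinophil chemokine of macrophages, was at 0.460 and 0.728 CPM in ndLN and at 9.80 and 60.2 CPM in tdLN.

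Along chromosome 11, Il4, Il5 and Csf2 were called higher in SSMs from ndLN and none of their neighbours was. Of 11 other protein-coding genes from Kif3a to Il3, 0 were called higher in SSMs in either node by edgeR's quasi-likelihood test, and 2 were called lower in each, Slc22a5 (log2 fold change -1.41 in ndLN) and Slc22a21 (-2.53). Rad50, which lies between Il13 and Il5, was at 23.5 and 30.9 CPM in SSMs and at 43.7 and 29.1 CPM in MSMs from ndLN. Irf1, next to Il5, was at 241 and 240.4 CPM in SSMs and 237 and 191 CPM in MSMs from ndLN. Il3, the neighbour of Csf2, did not exceed 0.252 CPM in any library. Between nodes in SSMs, 1 neighbour was called, Pdlim4, which was higher in tdLN (log2 fold change 1.91).

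**Figure D4:**
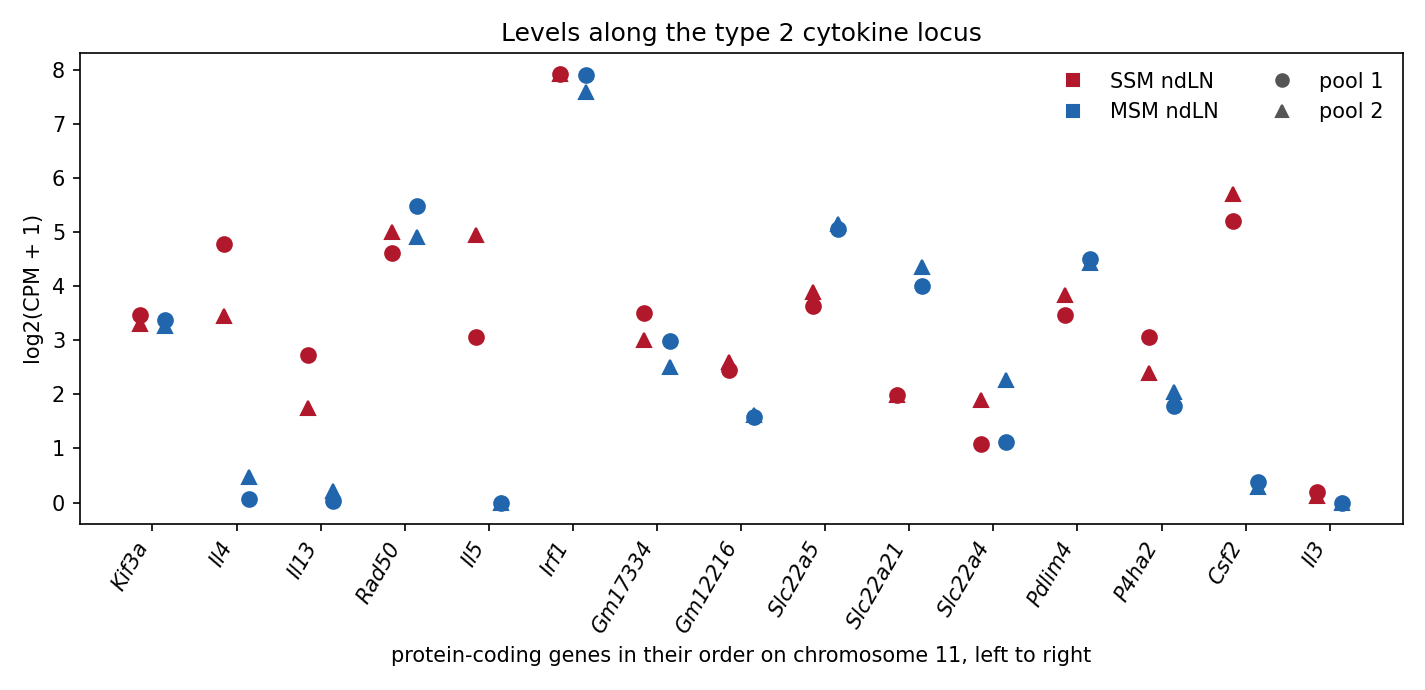
Level as log2(CPM + 1) on the vertical axis for the 15 protein-coding genes from Kif3a to Il3 in their order on chromosome 11 (horizontal axis); red marks are SSMs and blue marks MSMs from ndLN, circles pool 1 and triangles pool 2. Il4, Il13, Il5 and Csf2 separate the subsets, whereas Kif3a, Rad50 and Irf1 lie close together.

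The genes whose levels were most like those of each member over the 8 libraries differed between members. By Pearson r of log2(CPM + 1) among 9985 genes, Il4 was most like Fbxo9 (0.987), Ccl6 (0.984) and Mcpt2 (0.977), and Il5 most like Synj2 (0.988), Psd4 (0.982) and Ppfia1 (0.982). Csf2 was closest to Lingo4 (0.999), Sptssa and Gem (0.997 each). Gata3 was closest to Tnfrsf25, Pim2 and Krt83, and Klrg1 to the T cell receptor beta segments Trbv13-3 and Trbj1-1 and to F2r, all at 0.998. The nearest genes were Tasp1 for Areg (0.993), Jmy for Il1rl1 (0.997) and Sfn for Il2ra (0.995). The 8 points share 4 groups, so that any gene with a large difference between subsets gives a high r.

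Markers of other cells moved with the members. In SSMs from ndLN, the summed level of 8 T cell genes was 1303 and 1423 CPM, against 164 and 217 CPM in MSMs, and 8 of the 8 were called higher in SSMs. That of 7 genes of NK cells and type 1 innate lymphoid cells was 2395 and 2032 CPM against 85.4 and 126 CPM, with 7 of 7 called. That of 7 genes of type 3 innate-like lymphocytes was 869 and 1091 CPM against 18.6 and 26.0 CPM, with 7 of 7 called. Mast cell genes summed to 3151 and 2132 CPM against 672 and 688 CPM, with 7 of 9 called higher. Kit and Hdc, the histamine-forming enzyme gene, made up nearly all of the MSM sum, and the other 7 genes summed to 2413 and 1323 CPM in SSMs against 1.26 and 3.88 CPM in MSMs. Kit was higher in MSMs from ndLN, at 606 and 614 CPM, without being called (log2 fold change -0.57), and was called lower in SSMs than in MSMs in tdLN. In MSMs from ndLN, Mrgprb1, Mrgprb2 and Tph1 of the mast cell list had 0 counts.

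The lists for basophils, eosinophils, regulatory T cells and B cells held fewer called genes. Of 6 basophil genes, 1 was called higher in SSMs from ndLN, and the list summed to 73.5 and 41.8 CPM against 12.3 and 10.9 CPM. Of 5 eosinophil genes, 2 were called, with sums of 71.4 and 55.5 CPM against 4.51 and 4.66 CPM. Of 5 regulatory T cell genes, 2 were called, but Foxp3, which defines these cells, was at 0.975 and 3.09 CPM in SSMs and at 5.69 and 6.84 CPM in MSMs. None of 4 B cell genes was called by edgeR's quasi-likelihood test, and they summed to 21.3 and 26.7 CPM against 17.5 and 40.4 CPM. The part of any of these cells in the levels of the members was not tested.

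Between nodes in SSMs, the summed levels of T cell, regulatory T cell, type 3 and mast cell genes were lower in tdLN in both pools, as was that of the members, and those of macrophage and B cell genes were higher. The 10 members summed to 766 and 881 CPM in ndLN and to 244 and 303 CPM in tdLN. T cell genes went from 1303 and 1423 CPM to 577 and 631 CPM, with 2 of 8 called lower, and type 3 genes from 869 and 1091 CPM to 300 and 281 CPM, with 4 of 7 called lower. NK cell genes went from 2395 and 2032 CPM to 1432 and 2030 CPM, with 0 of 7 called by edgeR's quasi-likelihood test. Mast cell genes went from 3151 and 2132 CPM to 372 and 789 CPM, with 2 of 9 called lower. Macrophage genes went from 9116 and 5922 CPM to 22494 and 15395 CPM, with 6 of 8 called higher. Regulatory T cell genes went from 523 and 680 CPM to 206 and 245 CPM, with 1 of 5 called lower. Foxp3 among them had a log2 fold change of 0.39 and was not called. B cell genes went from 21.3 and 26.7 CPM to 28.5 and 30.01 CPM. Only 1 of these 4 genes had a positive log2 fold change, the median was -0.74 and 0 were called. Basophil genes went from 73.5 and 41.8 CPM to 73.9 and 64.9 CPM, and eosinophil genes from 71.4 and 55.5 CPM to 12.6 and 103 CPM. Whether a change in the cells sorted accounts for the fall of Csf2, Gata3 and Il2ra was not tested.

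**Figure D5:**
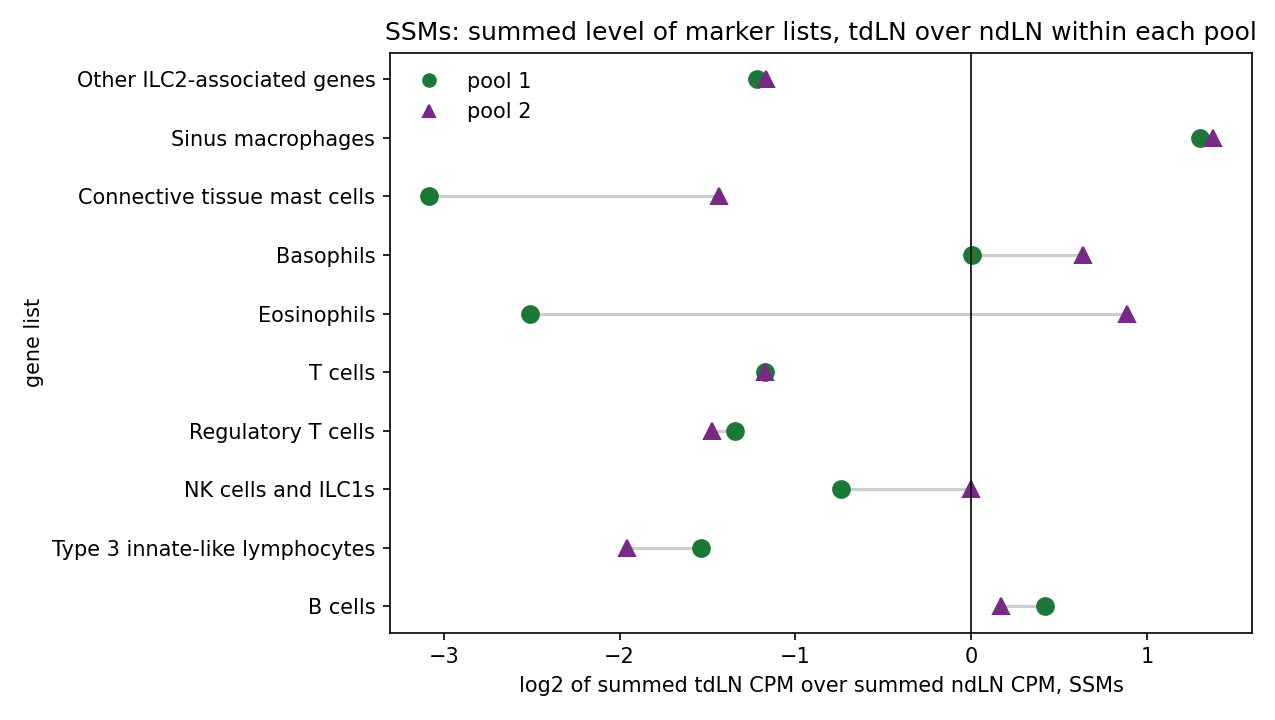
Log2 of the summed CPM in tdLN over that in ndLN (horizontal axis) for 10 gene lists (vertical axis) in SSMs; circles are pool 1 and triangles pool 2. Macrophage genes lie at 1.30 and 1.38 and T cell genes at -1.18 and -1.17, and the pools differ most for eosinophil genes, at -2.51 and 0.89.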

How the data were processed

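RNA was sequenced from 8 libraries of SSMs and MSMs, 2 in each of 4 groups. Libraries were made with the SMART-Seq v4 kit, which does not mark strand, trimmed with Trimmomatic 0.36 and aligned to GRCm38 with STAR 2.5.3a, per the submitters' processing notes. The authors deposited raw counts per gene for 16 samples, the 2 lanes of each library, with no normalization. The counting mode and the annotation are not given in the sources used here, and symbols came from GENCODE M21 (55154 IDs matched). Every column was used.

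Lanes were summed, because they differed by no more than sampling noise (chi-square per degree of freedom 0.955 to 1.015, against 29.3 to 53.1 between libraries of a group). Genes with at least 10 counts in total and detected in at least 2 samples were kept. TMM factors lay between 0.902 and 1.15. All 8 libraries were fitted in edgeR 4.0.16 (R 4.3.3) by glmQLFit with terms for group and pool. Each contrast was tested two-sided by the quasi-likelihood F test and adjusted by Benjamini-Hochberg. The fit was tested on simulated data first. Pool was a term because the study's methods say that each pool of mice gave cells of all 4 groups. Those methods count 4 pools in 16 samples, whereas the labels number 2 libraries a group and give none to 1 SSM library from tdLN, which was taken as pool 1. Deviations of same-numbered libraries from their group means correlated between -0.193 and 0.148 over 10000 genes. Normalized counts were scaled to 1 lane, where 100 counts equal 4.43 CPM. Intervals and the floor of 3 counts cover counting error only. The p-values rest on the spread left over all 8 libraries after the terms for group and pool, with information shared across genes.

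The 10 members and the gene lists were chosen with earlier results of these data known. All members are named with their values. From each list, genes called in a comparison are counted, and those with the 3 largest changes or on which a sentence turns are named. Fcer1a, Cpa3, Prss34, Prg2, Kit, Hdc, Mcpt8, Ptgdr2, Nmur1 and Cd3e were picked out of the lists after their values were seen, and Mcpt2 from the genes most like Il4. Foxp3, Il33, Rad50 and Irf1, among others, are also given by value though they were not called. Gzmb and Ncr1 are given though they were not called between nodes. The alternatives were no pool term, DESeq2 1.42.0 on libraries or lanes, DESeq2's size factors, other filters and thresholds, Holm adjustment, the legacy fit, 1 lane, only the groups compared, and each library left out. Figures were drawn with matplotlib 3.10.9.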

Additional observations from a re-analysis of the deposited data

How the results depend on the processing

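The fit held pool as a replicate block. With no replicate block, 8 members were called in ndLN, where 6.41% of all genes tested were called higher, 6 in tdLN (5.5% called higher) and 4 between nodes in SSMs (1.49% called lower). In SSMs against MSMs, Holm adjustment left 3 called members in ndLN and 2 in tdLN, beside 0.517% and 0.346% of all genes called higher. DESeq2's likelihood ratio test on lanes, which treats lanes as replicates, called 8 in tdLN and 16.5% of all genes higher. Leaving out 1 library gave 4 to 8 calls in ndLN and 3 to 5 in tdLN. For tdLN against ndLN in SSMs, filterByExpr, lane 3 alone and lane 4 alone gave 5 called members each, beside 1.84%, 1.57% and 1.57% of genes called lower. Both DESeq2 tests gave 6 (6.57% of genes lower in the Wald test and 14.3% in the likelihood ratio test). An adjusted p under 0.05 gave 7, beside 3.37% of genes called lower. Holm adjustment gave 0 members, beside 0.00949% of genes called lower. A fit of only the groups compared also gave 0, and there 0 of 20720 genes were called. Leaving out 1 SSM library removed the calls, as given above, and each omission left 1 library in a group. In MSMs the Wald and likelihood ratio tests of DESeq2 called 2 and 3 members beside 3.56% and 16.8% of genes, and for the interaction 1 and 3 beside 5.3% and 17.8%. The cause was not tested.

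Of 890 fold changes of single members under alternatives, 22 reversed in sign. None of these was in SSMs against MSMs, and none was for a member in a comparison where it had been called. Of these, 4 were for tdLN against ndLN in SSMs, 11 for the same in MSMs and 7 for the interaction. Between nodes in SSMs, the log2 fold change ranged over the omissions of 1 library from -1.82 to 2.06 for Il4 and from -3.77 to 0.23 for Il13. In MSMs it ranged from -1.56 to 1.54 for Il4, -0.51 to 4.27 for Il5, -0.41 to 0.19 for Areg, -6.60 to 0.10 for Il1rl1, -2.22 to 7.18 for Il9r and -0.55 to 0.61 for Il2ra. The interaction ranged from -1.56 to 2.33 for Il4, -2.22 to 4.49 for Il1rl1 and -9.16 to 0.24 for Il9r. In MSMs, Il4 was at 0.087 in DESeq2's Wald test and 0.024 in its likelihood ratio test, Il2ra was at 0.0077 on lane 4 alone, and the interaction of Il4 was -0.020 in the Wald test. In MSMs, Il4 did not exceed 0.379 CPM and Il5 0.024 CPM, so that few counts lie behind these folds, and every p-value rests on 2 libraries a group.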

Other observations

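Cytokine genes of type 3 lymphocytes, which were not members, were also found in SSMs. Il22, which acts on epithelia, was at 368 and 444 CPM in SSMs from ndLN, 85.0 and 58.6 CPM in SSMs from tdLN, 3.54 and 1.78 CPM in MSMs from ndLN, and 0 and 0.044 CPM in MSMs from tdLN. Il17f was at 44.3 and 61.7 CPM in SSMs from ndLN and at 13.5 and 8.14 CPM in those from tdLN. Both were called higher in SSMs than in MSMs in each node and lower in tdLN than in ndLN in SSMs, where the log2 fold changes were -2.53 and -2.31.

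Of the NK cell genes, Gzmb was at 826 and 772 CPM in SSMs from ndLN and at 512 and 758 CPM in SSMs from tdLN, and Ncr1 at 144 and 113 CPM and at 97.6 and 141 CPM. For both genes the libraries of the nodes overlapped or nearly met, with log2 fold changes of -0.39 and -0.14.

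The gene Mcpt8, a basophil protease, was the 1 basophil gene called higher in SSMs from tdLN than from ndLN. It was at 1.60 and 3.92 CPM in ndLN and at 20.4 and 23.8 CPM in tdLN, with a log2 fold change of 3.06, and unlike Il4 it was close in both tdLN libraries.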
